A study of Mus musculus with 16 samples.

Results

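The features described here are those whose RNA was higher in wild-type regulatory T cells a day after stimulation but not yet clearly higher at 8 h. They were chosen on their measured values: a mean of at least 50 normalised counts over all 16 libraries and, in the wild-type libraries, a 24 h mean at least 1.7 times the 0 h mean, an 8 h mean under 1.5 times the 0 h mean, and both 24 h libraries above both 0 h libraries. The rule found 155 of 27802 features, and 8388 features reached the mean of 50. They are called members 1 to 155, in order of their mean normalised count over all libraries. Because the values at 0, 8 and 24 h in wild type picked them, those values are given below as a description, without a test. The tests are on the knockout libraries, on the comparison of genotypes at 2 h, and on wild-type libraries kept out of the picking. The knockout libraries and those of 2 h entered the picking through the overall mean alone.

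Regulatory T cells (CD4+CD25high) were sorted from spleens of C57BL/6 mice, either wild type (WT) or with a knock-out of Sh2d2a (KO), matched for sex and age. They were taken without stimulation (0 h) or after 2, 8 or 24 h on plates coated with 1 µg/ml of antibody to CD3 (clone 145-2C11), and their polyadenylated RNA was sequenced. There were 8 groups, 1 for each genotype at each time, of 2 libraries each. The labels do not tie the 2 libraries of a group to different mice, so a p-value here stands for the spread between libraries alone, and that spread may be technical. The labels name neither the design of the knockout allele nor the number of mice pooled, and every library beyond 0 h had the antibody, so stimulation and time in culture cannot be told apart. In such bulk samples a larger share of cells with a transcript and more transcript per cell cannot be told apart either.

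Regulatory T cells restrain immune responses, and their activity in an immune reaction depends on signals through the T-cell receptor, of which the CD3 chains are the signalling part. An antibody to CD3 engages that complex and activates the kinase Lck. Sh2d2a encodes TSAd, an adaptor protein found in activated T cells that binds Lck. Transcripts that respond to receptor signals are often divided into an early wave, which needs no new protein, and a later wave that depends on proteins made in the meantime, such as those for growth and division.

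Recovered depth was 2.73 to 10.23 M reads in WT and 2.07 to 5.91 M reads in KO, and the deepest library was the first WT library of 24 h. No member was at 0 in any library. In the shallowest library the median member had 40 reads and the lowest had 7. The identifiers listed beside the values could not be used to name genes. Among 21 listed genes of general or T-cell use, 4 were at 0 in all libraries and 10 had means below 10. The highest value in the row listed as Foxp3, which encodes the lineage factor of regulatory T cells, was 2.53. The row listed as Sh2d2a had 0 to 4.22, with a median of 0, so the targeted gene could not be checked and the sorted cell type could not be checked against its markers. The members are therefore unnamed. For reference, member 1 is the row listed as ENSMUSG00000056359 and member 2 that listed as ENSMUSG00000024421, which does not say which genes they are. For the same reason no pathway or sequence is given.

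In WT the members were low and level at 0 and 2 h, were a little higher at 8 h and were highest at 24 h. The median member had 87 and 87.3 normalised counts in the WT libraries of 0 h, 89.1 and 89.8 at 2 h, 106 and 101 at 8 h, and 187 and 158 at 24 h. The libraries of 24 h stood above those of every earlier time by this measure. In KO the median member had 82.8 and 84.4 at 0 h, 81 and 82.1 at 2 h, 87.3 and 83 at 8 h, and 94.8 and 91.2 at 24 h. The KO libraries of 24 h were thus above those of 0 h by this measure, but below both WT libraries of 8 h.

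**Figure D1:**
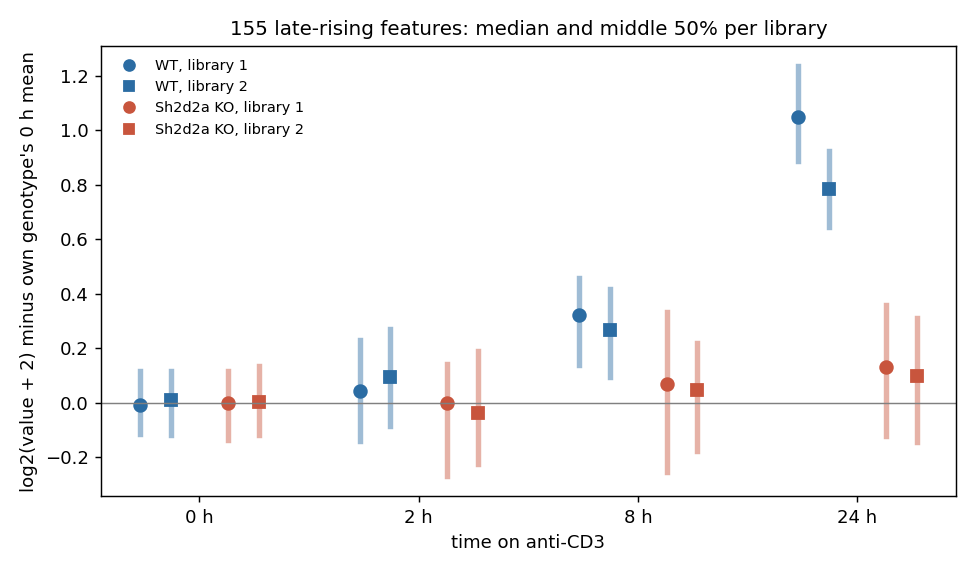
Median (symbol) and middle 50% (bar) of the 155 members in each library, as log2(value + 2) minus the mean of the same genotype's 0 h libraries, by time on anti-CD3, with WT in blue and Sh2d2a KO in red. The WT libraries of 24 h have medians of 1.05 and 0.78 and those of KO 0.13 and 0.10; the WT rise is part of how the members were chosen.

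The median ratio of 24 h to 0 h over the members was 1.87 in WT, with a range of 1.702 to 24.3 that the rule cuts off at the lower end. In KO the same ratio had a median of 1.07 and a range of 0.58 to 2.34. In WT 47 members were at least 2-fold and 9 at least 3-fold above 0 h. In KO 4 members reached the 1.7-fold that the rule asked of WT. At least 1.5-fold above KO 0 h were 13 members (8.39%), against 1.49% of all features with a mean of at least 50. At or below 1/1.5 of KO 0 h were 4 members (2.58%). Within 1.2-fold of their 0 h level in either direction were 91. For these counts, and for the 1.7-fold rise in KO, the share over all features was not counted. The middle 50% of KO log2 changes ran from -0.07 to 0.30 for the members, and from -0.13 to 0.14 for features of that mean.

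At 2 h the WT level of the members was near that of 0 h, and at 8 h it was between those of 0 and 24 h. At 2 h, which the rule used in the overall mean alone, 2 members were at least 1.5 times their WT 0 h level, and the median ratio was 1.05. At 8 h the mean was above that of 0 h for 138 members, with a median ratio of 1.24, and for 85 (54.8%) both libraries of 8 h lay above both of 0 h, as they did for 18.6% of all features tested. For 145 members (93.5%) both libraries of 24 h lay above both of 8 h, as they did for 22.9% of all features. These comparisons share the WT libraries of 0, 8 and 24 h with the rule and were not tested.

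The choice at the edges of the rule was close. Just inside the 24 h limit were members 82 and 36, with ratios of 1.702 and 1.703, and just outside were features with 1.698 and 1.696. Just inside the 8 h limit were members 135 and 128, both at 1.497, and just outside were features with 1.501 and 1.503. At the limit on the mean, members 155 and 154 had 50.4 and 50.5 (means over all libraries), and the nearest features below it had 49.7.

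The members were less abundant than other features of that mean: their median mean was 96.8 normalised counts, against 225 for all features of at least 50. There were 83 members under 100, 58 from 100 to 500 and 14 at 500 or more. Together they made up 0.761% and 0.868% of the WT libraries of 0 h, and 1.68% and 1.48% of those of 24 h. In KO they made up 0.843% and 1.05% at 0 h and 0.972% and 1.01% at 24 h, so the KO libraries of these times overlapped. At 2 h the KO libraries had 0.813% and 1.49%, and without member 4 the second fell to 0.982%. With members 1 and 4 left out, which was decided after their values were seen, the share in KO was 0.675% ± 0.0037 at 0 h and 0.752% ± 0.042 at 24 h, and in WT 0.674% ± 0.018 and 1.32% ± 0.21 (SD, n = 2 each).

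**Figure D2:**
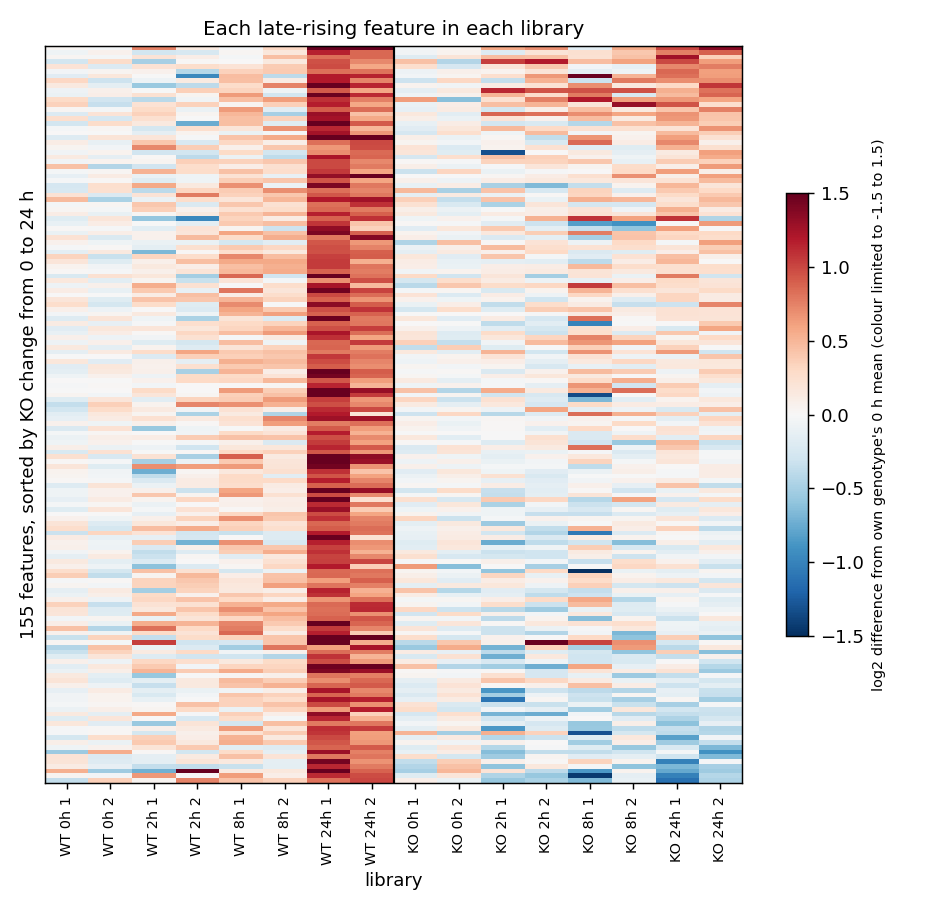
Each of the 155 members (rows, sorted by the KO change from 0 to 24 h) in each of the 16 libraries (columns), coloured by the log2 difference from the same genotype's 0 h mean, limited to -1.5 to 1.5. The WT columns of 24 h are red throughout, as the rule asked, while the KO columns of 24 h run from red at the top to blue at the bottom. In KO at 24 h 96 members (61.9%) were above 0 and 59 below, and 51.0% of all features with a mean of at least 50 were above 0.

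The first question for independent libraries was whether KO cells showed the same late change. None of the 155 members was called in KO at 24 h against 0 h by limma at an adjusted p of 0.05, nor by edgeR or DESeq2 on the recovered reads. Among all 12391 features tested, limma called 0.0161% as higher and 0% as lower, so few calls were to be had in this comparison. At an unadjusted p under 0.05 (limma), 15 members (9.68%) were higher in KO at 24 h, against 3.53% of all features and 3.80% of those with a mean of at least 50. At the same threshold 2 members (1.29%) were lower, against 3.16% of all features. The median log2 change of the members was 0.10, and that of all features 0.0015. For 43 members (27.7%) both KO libraries of 24 h lay above both of 0 h, against 17.6% of all features tested, and for 13 (8.39%) both lay below, against 16%.

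The KO changes at the earlier times were smaller. At 8 h against 0 h the median log2 change was 0.05. None of the members was called by limma, edgeR or DESeq2, where limma called 0.00807% of all features in each direction. At an unadjusted p under 0.05 (limma) 13 members were higher and 6 lower, which is 8.39% and 3.87%, against 3.39% and 3.62% of all features. At 2 h the median log2 change was -0.03, with 6 members higher (3.87% against 2.58% of all features) and 3 lower (1.94% against 2.15%) at an unadjusted p under 0.05 (limma). Again limma called no member at 2 h, where it called 0.00807% of all features as higher and 0% as lower. edgeR called none either, and DESeq2 called member 4, whose value came from 1 library as described below. These KO comparisons share the libraries of 0 h.

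With 24 h set against the mean of KO 0, 2 and 8 h, the members had a median log2 change of 0.09 and 104 of 155 were above 0 (67.1%), against 50% of the features with a mean of at least 50. No member was called by limma, edgeR or DESeq2, and limma called 0% of all features in either direction. At an unadjusted p under 0.05 (limma) 13 members were higher, 8.39% against 3.02% of all features, and 2 were lower, 1.29% against 3.24%. The mean of 24 h was the highest of the 4 KO means for 61 members (39.4%), and for 26.2% of all features with a mean of at least 50.

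Single members differed in KO, and the widest KO rises were of 0.81 to 1.18 on the log2 scale. Member 100 was the member with the largest KO rise and among the 5 with the largest WT ratios. In WT it had 47.1 and 45.3 normalised counts at 0 h, 78.6 and 50.8 at 2 h, 45.4 and 57.8 at 8 h, and 208 and 226 at 24 h. In KO it had 45.3 and 47.9 at 0 h, 70.8 and 76.1 at 2 h, 41.5 and 70.1 at 8 h, and 94.8 and 123 at 24 h. Both genotypes were highest at 24 h, and the KO libraries of that time lay above all other KO libraries and below those of WT. Its KO log2 change was 1.18 ± 0.28 (SE; limma adjusted p = 0.288), which missed the threshold.

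Member 93 had 44.2 and 47.9 in KO at 0 h and 78.8 and 87.4 at 24 h. The KO log2 change was 0.83 ± 0.25 (SE; limma adjusted p = 0.441). In WT it had 90.6 and 98.6 at 0 h and 212 and 173 at 24 h, so the KO libraries of 24 h were below the WT libraries of 0 h. Member 66 had 69.5 and 91.5 in KO at 0 h and 195 and 103 at 24 h. Its KO log2 change was 0.81 ± 0.25 (SE; limma adjusted p = 0.477), with the second library of 24 h below the KO libraries of 2 h. It was the member whose KO ratio, 1.85, was above its WT ratio, 1.81, the single such case among the 155.

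At the other end, member 150 had 68.4 and 59.1 in KO at 0 h and 28.3 and 45.6 at 24 h, while in WT it had 29.7 and 50.1 at 0 h and 69.2 and 79.1 at 24 h. Its KO log2 change was -0.79 ± 0.34 (SE; limma adjusted p = 0.669). Member 126 had 49.7 and 64.7 in KO at 0 h and 27.1 and 41.8 at 24 h, against 61.9 and 58.2, then 133 and 120, in WT. Its KO log2 change was -0.72 ± 0.35 (SE; limma adjusted p = 0.745). In KO the libraries of 0 and 24 h did not overlap for either member, with those of 24 h lower, as for 16% of all features tested. The KO changes did not pass the test. In WT the rule itself set these times apart. The third of the largest KO falls was that of member 37 (-0.65), at 28.7 and 59.1 at 0 h and 23.4 and 27.9 at 24 h.

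**Figure D3:**
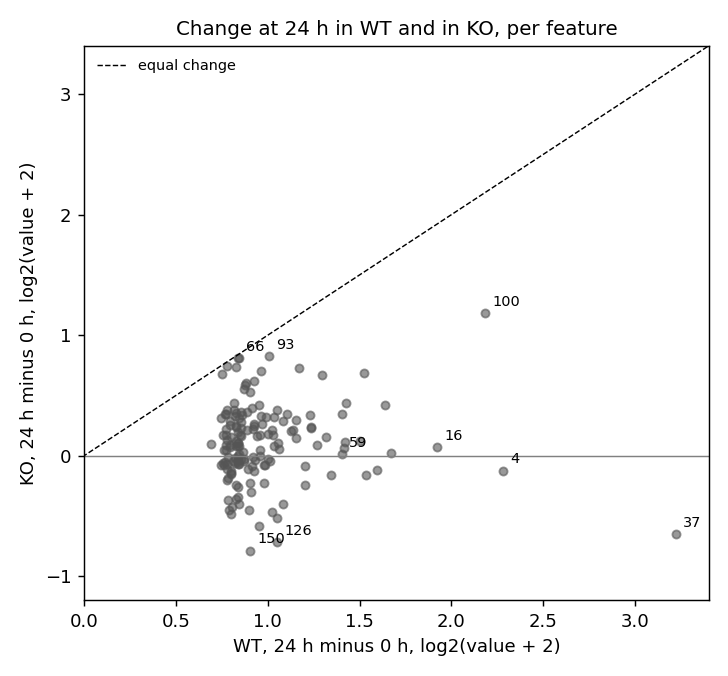
Change from 0 to 24 h in WT (horizontal) and in KO (vertical) for each of the 155 members, both as differences of mean log2(value + 2), with the dashed line marking equal change and numbers marking members named in the text. All members are right of 0 by the rule, with a WT median of 0.87, and their KO values scatter around a median of 0.10 from -0.79 to 1.18.

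Among the members, the size of the WT change went with that of the KO change hardly at all. The Pearson r over the 155 members was 0.002 and Spearman's rho 0.08, as a description. Genotypes share no libraries, the rule cuts off the low end of the WT changes, and members are not independent replicates.

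The second question was whether the WT rise was found again in libraries that had no part in the picking. The rule was applied to the WT libraries of replicate 1 at 0, 8 and 24 h, and the features it picked were measured in replicate 2, then the reverse. With 1 WT library a group left in each such fit, that library was taken to vary like the other groups. Replicate 1 picked 265 features, of which 264 were tested and 98 are among the 155 members (37% of the picks). Replicate 2 picked 133, of which 57 are members (42.9%). Both picked 31 features in common, 11.7% of the first list and 23.3% of the second.

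In the held-out WT libraries the picked features were higher at 24 h, though by less than in the libraries that picked them. The median log2 change was 0.45 for the picks of replicate 1 and 0.63 for those of replicate 2, against 0.01 for all features in both fits. Of the 264 features 10 (3.79%) were called as higher by limma, against 0.571% of all features, and none as lower, against 0.212%. Of the 133 features 28 (21.1%) were called as higher, against 1.79% of all features, and none as lower, against 0.954%. At an unadjusted p under 0.05 (limma) 84 of 264 (31.8%, against 5.78%) and 57 of 133 (42.9%, against 7.11%) were higher. At that threshold none of the 264 was lower, against 4.29% of all features, and 1 of the 133 was, against 4.31%. A held-out change above 1.7-fold was seen in 48 of 264 features (18.2%) and in 55 of 133 (41.4%). The same features had a median KO change of 0.08 and 0.12, and 8 and 4 of them were above 1.7-fold in KO. The share above 1.7-fold was not counted over all features, in held-out WT or in KO. How many features pass that limit through the spread between libraries alone was therefore not tested.

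The difference between the genotypes' changes was tested on the same held-out libraries, as the interaction of genotype and time. The KO change was smaller than the held-out WT change for 219 of 264 features (83%), against 51.1% of all features in that fit. It was smaller for 110 of 133 (82.7%), against 51.8%. The median difference of the log2 changes was -0.38 and -0.61, against -0.013 and -0.018 for all features. By limma 2 of the 264 features were called (0.758%), both with the smaller change in KO, against 0.106% of all features in that direction and 0.0245% in the other. This count did not hold when 1 library was left out. It was 0 on leaving out the second WT library of 8 h, or a KO library of 0 or 2 h, and 1 on leaving out a WT library of 2 h or a KO library of 24 h. Of the 133 features 11 were called (8.27%), again all with the smaller change in KO, against 0.489% of all features in that direction and 0.261% in the other. That count was 8 to 15 with any 1 of the other libraries left out. At an unadjusted p under 0.05 (limma) 49 of 264 (18.6%, against 4.07%) and 41 of 133 (30.8%, against 5.05%) had the smaller change in KO. The larger change was in KO at that threshold for none of the 264 (against 3.13% of all features) and for 1 of the 133 (against 3.49%).

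**Figure D4:**
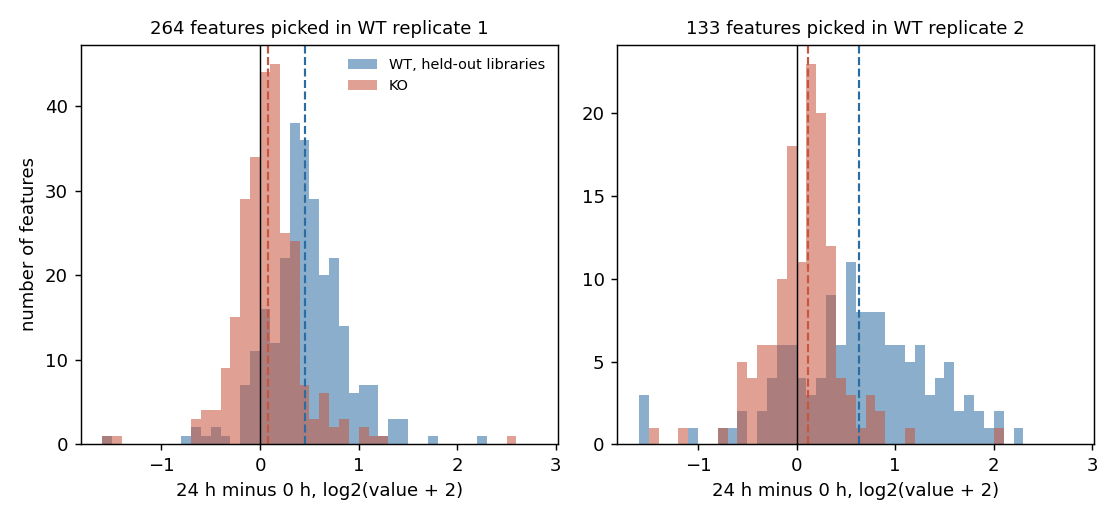
Number of features by change from 0 to 24 h, as log2(value + 2), in the WT libraries kept out of the picking (blue) and in KO (red), for the 264 features picked in WT replicate 1 and the 133 picked in WT replicate 2, with dashed lines at the medians and values beyond the axis put in the end bins. The held-out WT medians are 0.45 and 0.63 and the KO medians 0.08 and 0.12.

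Of the 11 features called in the interaction when replicate 1 was held out, 6 are members. The others had differences of -1.90 to -1.28. Membership was set on both WT replicates, so the members described here were partly chosen by the libraries that test them. Their differences of change are therefore not independent of the rule, and are given as a description without p-values. Member 16 had the largest difference and a KO level that hardly moved. In WT it had 388 and 280 normalised counts at 0 h, 385 and 235 at 2 h, 614 and 361 at 8 h, and 1865 and 841 at 24 h. In KO it had 255 and 232 at 0 h, 220 and 254 at 2 h, 271 and 219 at 8 h, and 272 and 241 at 24 h. Every KO library lay below the lower WT library of 0 h, and the WT pair of 24 h was over 2-fold apart. Its difference of change in the held-out libraries was -2.19.

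Member 33 went from 183 and 200 in WT at 0 h to 289 and 205 at 8 h and 792 and 476 at 24 h, and was at 138 and 204, 170 and 137, and 156 and 186 in KO at the same times. Its held-out difference of change was -2.08, again as a description, since both WT replicates chose this member. Member 18 went from 252 and 285 at 0 h to 712 and 658 at 24 h in WT, and in KO from 421 and 408 to 483 and 284, so that KO was above WT at 0 h and below it at 24 h. Its held-out difference was -1.65, with the same limit.

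Member 12 was already at 665 and 650 in WT at 2 h, from 488 and 424 at 0 h, and reached 1320 and 834 at 24 h. Its KO libraries ranged from 435 to 587 over all times, with 471 and 457 at 24 h, and its held-out difference was -1.52. Members 24 and 25 had smaller held-out differences of -1.35 and -1.22. These values are descriptions too, since both WT replicates chose the members. Member 24 had 263 and 288 at 0 h and 747 and 503 at 24 h in WT, and 294 and 280, then 296 and 342, in KO. Member 25 had 248 and 283, then 710 and 492, in WT, and 233 and 215, then 276 and 275, in KO. The call of member 25 was lost on leaving out any of 3 KO libraries, both of 0 h and the second of 24 h. With no filter on low values the calls of members 18, 24, 25 and 33 ended. In all, of 20 alternatives the call was weaker in 5 for member 25, 2 for member 24 and 1 each for members 18 and 33. For members 12 and 16 it held in all 20.

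The rise in held-out WT libraries alone was called in both directions of picking for 4 members: 3, 6, 53 and 100. Such a call needs picking in both replicates, so the rule itself held each of their held-out changes to at least 1.7-fold. The 2 calls of a member are thus a description, and not a repeat in libraries free of the rule. Member 3 was the steadiest of the abundant members. It had 3168 and 3095 in WT at 0 h, 3303 and 3573 at 2 h, 4381 and 4624 at 8 h, and 5763 and 5342 at 24 h. Its held-out WT changes were 0.79 ± 0.14 and 0.86 ± 0.14 (SE; limma adjusted p = 0.00135 and 0.000177). In KO it had 2924 and 3153, 3289 and 3324, 3469 and 3363, and 3589 and 3625 at the same times. Its KO log2 change at 24 h was 0.25 ± 0.09 (SE; limma adjusted p = 0.585). The KO values at 24 h lay above those at 0 h and below those of WT at 8 h.

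Member 6 had 983 and 1047 in WT at 0 h, 1120 and 969 at 2 h, 1447 and 1555 at 8 h, and 1878 and 1874 at 24 h. Its 8 h ratio of 1.48 was close to the limit of the rule. In KO it had 822 and 823, 825 and 815, 906 and 881, and 959 and 948, and these 8 values all lay below the lowest WT value. At 24 h the KO log2 change was 0.21 ± 0.11 (SE; limma adjusted p = 0.756). Member 53 was the least firm of the 4. Its held-out WT changes were 1.31 and 1.52, and the former lost its call on leaving out any KO library of 0 or 2 h. That call was weaker in 8 of 20 alternatives in all. Member 53 had 119 and 116 at 0 h and 346 and 291 at 24 h in WT. In KO it had 115 and 128, then 138 and 117, and the groups overlapped.

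Members 7, 9, 22 and 28 were each called in 1 direction of picking. As members they too were chosen with the held-out libraries, so their p-values are not independent of the rule. Member 9 had 844 and 671 in WT at 0 h and 1480 and 1255 at 24 h, and all its KO libraries, at 567 to 771, lay below the WT libraries of 8 h. Its held-out change was 0.90 ± 0.18 (SE; limma adjusted p = 0.0072). Member 22 had 327 and 280, then 832 and 613, in WT, and 244 and 253, then 282 and 303, in KO, with a held-out change of 1.34 ± 0.24 (SE; limma adjusted p = 0.000789). In KO member 22 was without overlap between 0 and 24 h, with 24 h higher, as were 17.6% of all features tested. In WT the rule asked for this. The KO libraries of 24 h of member 22 did not reach its WT level of 8 h. The KO mean of member 22 was highest at 8 h, at 324 (354 and 295), against 292 at 24 h. The genotypes overlapped at 8 h, where WT had 530 and 344. Members 7 and 28 had held-out changes of 0.76 and 1.00. Both lost their calls on leaving out either KO library of 2 h, and each call was weaker in 4 of 20 alternatives in all.

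**Figure D5:**
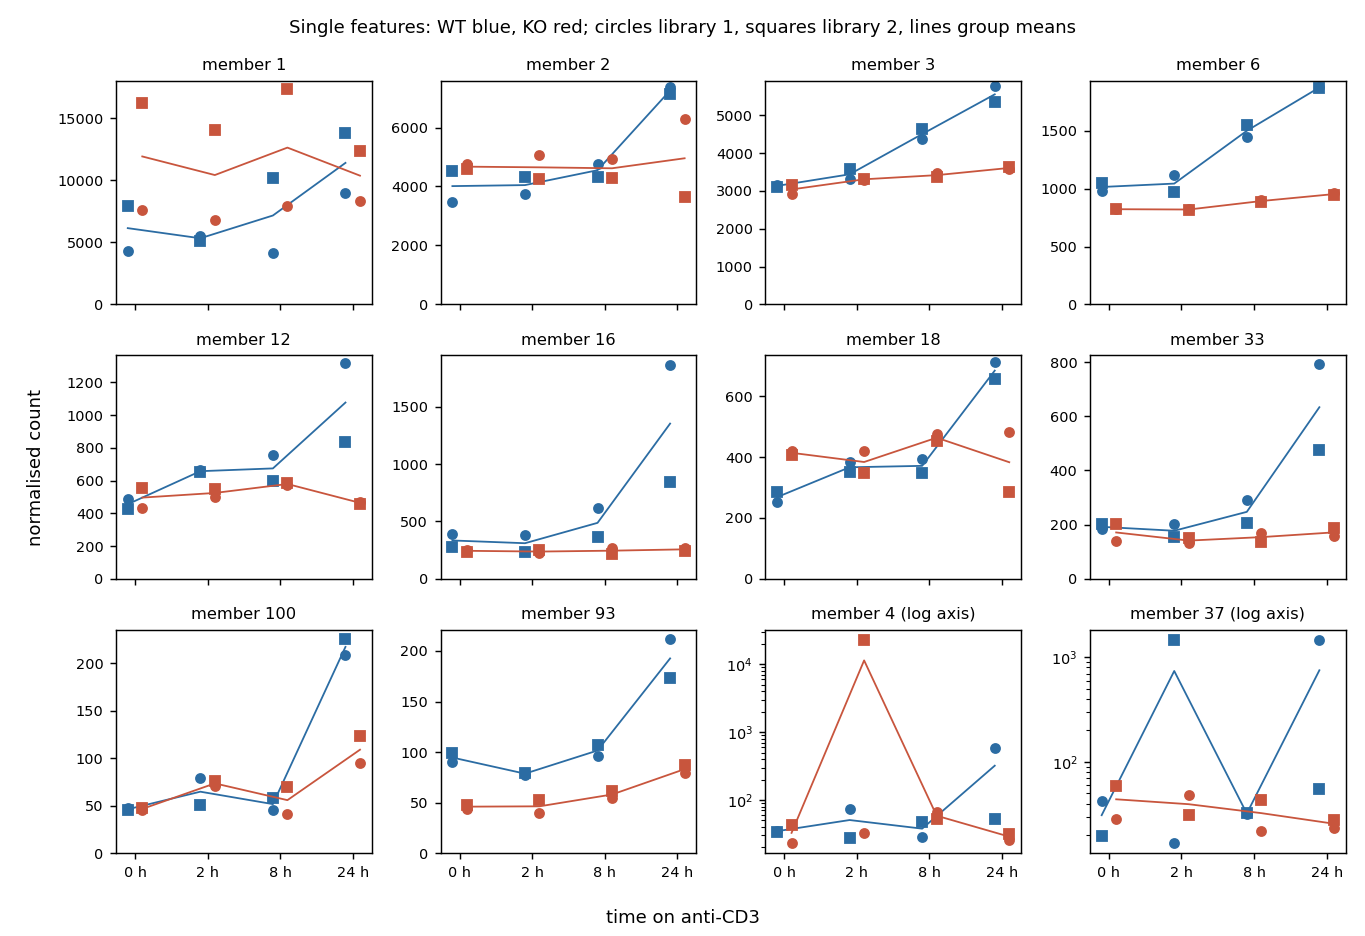
Normalised counts of 12 members by time on anti-CD3, with WT in blue, KO in red, circles and squares for libraries 1 and 2 and lines through the group means; the vertical axis is linear from 0 except for members 4 and 37, where it is logarithmic. Times are evenly spaced. For members 3, 6 and 16 the KO points of 24 h lie below the WT points of 24 h, member 1 has its 2 libraries far apart at most times, and members 4 and 37 owe their means to single libraries.

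The genotypes were then compared at 2 h, whose WT libraries the rule used in the overall mean alone. No member was called by limma or edgeR, where limma called 0.0242% of all features as higher in KO and 0.186% as lower. DESeq2 called member 4, through its single high library. At an unadjusted p under 0.05 (limma) 12 members (7.74%) were lower in KO, against 3.41% of all features, and 2 (1.29%) were higher, against 2.3%. The median log2 difference was -0.14, and 0.00 for all features with a mean of at least 50. For 45 members (29%) both KO libraries lay below both WT libraries, against 18.4% of all features tested, and for 16 (10.3%) both lay above, against 17%. Member 6 had the lowest adjusted p, with a log2 difference of -0.34 ± 0.11 (SE; limma adjusted p = 0.348). Leaving out the second WT library of 2 h moved the median to -0.05, and it was also -0.05 over the 72 members with a mean of at least 100.

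At 0 h the genotypes stood level over the members, with a median ratio of KO to WT of 1.00. This median ratio fell to 0.92 at 2 h and 0.83 at 8 h. It was 0.56 at 24 h, where all 155 KO means were below those of WT and for 145 members (93.5%) both KO libraries lay below both WT libraries, as they did for 25.5% of all features tested. At 0, 8 and 24 h these ratios use the WT libraries that picked the members, so they are given without a test.

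The most abundant members were not the cleanest. Member 1 had 4335 and 7951 in WT at 0 h, 5545 and 5105 at 2 h, 4099 and 10225 at 8 h, and 8960 and 13850 at 24 h. In KO it had 7578 and 16269, 6784 and 14063, 7931 and 17342, and 8366 and 12384. The second library was the higher of the pair in every group other than WT at 2 h, and its KO level at 0 h overlapped the WT level at 24 h. In KO the log2 change was -0.13 ± 0.65 (SE; limma adjusted p = 0.996). Member 2 had 3487 and 4535 in WT at 0 h and 7382 and 7130 at 24 h, and 4760 and 4583, then 6286 and 3626, in KO. Member 5 had 922 and 984, then 1896 and 1571, in WT, and 923 and 904, then 1186 and 1164, in KO, where its log2 change was 0.36 ± 0.13 (SE; limma adjusted p = 0.585).

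The WT ratios of 3 of the 5 members with the largest ratios came from 1 library. Member 37 had 1450 and 55 in WT at 24 h and also 16.8 and 1465 at 2 h, with 16.8 to 59.1 in its other 14 libraries. Member 4 had 588 and 51.6 in WT at 24 h, and 33.1 and 22756 in KO at 2 h, a single value that made its mean of 1495 over all libraries. Its remaining values were 23.2 to 73.4. Member 59 had 563 and 111 in WT at 24 h, and 65.5 to 136 elsewhere. In all, 5 members had WT libraries of 24 h over 2-fold apart: 4, 16, 37, 59 and 139. Without these 5 the KO median at 24 h was 0.11, a comparison added after the values were seen.

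Within the WT pair of 24 h, depth and the level of the members differed together. The first library had 10.23 M reads and a median member of 187 normalised counts, and the second had 3.86 M reads and 158. The WT libraries of 0 h had 8.62 M and 2.73 M reads and median members of 87 and 87.3. Of the pair of WT libraries of 24 h, the first, with the most reads of all 16, was the higher for 125 of 155 members. Without it the rule found 110 members, and without the second library 269. With all libraries thinned to the depth of the shallowest it found 166. The part of depth in the difference between these libraries was not tested.

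The features most like the members are those that meet the same rule but were already at least 1.5-fold higher at 8 h in WT, of which there were 103. Their median log2 change was 0.89 at 8 h and 1.196 at 24 h in WT, against 0.30 and 0.87 for the late members. The contrast at 8 h in WT is set by the 1.5-fold limit that parts the lists. In KO their medians were 0.20 at 8 h and 0.26 at 24 h, against 0.05 and 0.10 for the late members. At 24 h 81 of 103 (78.6%) were above 0 in KO, against 96 of 155 (61.9%) and 51.0% of all features with a mean of at least 50. The difference between the lists was not tested.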

How the data were processed

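The 16 libraries' files each list 27803 identifiers with 1 value apiece. STAR 2.6.0a, HTSeq, DESeq2 and the build GRCm38.p6 are named in the submitters' processing notes. How reads were assigned and whether by strand is not stated there. Values deposited under a heading of counts are in fact a signal scaled by the authors: whole reads times a constant of the library, 0.432 to 2.18 per read. Non-zero values came out whole within 0.01 reads for 100% of them. A duplicated row was removed.

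The test was limma 3.58.1 (R 4.3.3; trended, robust prior) on log2(value + 2), which understates changes of low features, over the 12391 features with at least 10 in at least 2 libraries, with 1 mean per group and Benjamini-Hochberg adjustment over all features. All 155 members passed that filter. edgeR 4.0.16 and DESeq2 1.42.0 were run on recovered reads. At an adjusted p of 0.05 edgeR called 0 features in KO at 24 h, where limma called 2, and 31 between genotypes at 2 h, where limma called 26. Held-out fits used 13 libraries. The script was tested on simulated data. Members, lists and tests were chosen with earlier results of these data known. Members named singly were the 6 with the highest means, the 5 with the largest WT ratios and the 3 with the largest KO rises and falls. Up to 8 called in each test and those nearest each limit were named as well. Libraries of a pair differed by more than sampling noise (chi-square over degrees of freedom 5.26 to 17.3). Python 3.11.15, scipy 1.17.1 and matplotlib 3.10.9 served tables and plots.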

Additional observations from a re-analysis of the deposited data

Results flagged for a closer look

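The change from 0 to 24 h was compared between WT and KO by a test of the difference itself in 2 held-out fits, which differed in how far their calls held. It was called as smaller in KO for 11 of the 133 features picked in WT replicate 2 and measured in replicate 1, with log2 differences of -2.19 to -1.22, against 0.489% of all features. That number stayed between 8 and 15 under all 20 alternatives other than that without a filter on low values, where it was 4. It was called for 2 of the 264 features picked in replicate 1 and measured in replicate 2, with -2.08 and -1.57, against 0.106% of all features (limma, Benjamini-Hochberg adjusted over all features). These 2 calls did not hold: their number was lower in 14 of 20 alternatives. Groups of 2 libraries are too small to look for single libraries far from the rest by a rule.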

How the results depend on the processing

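The number of members depended on the limits: it was 363 with a 24 h ratio of 1.5, 47 with a ratio of 2, 99 with an 8 h ratio of 1.3 and 72 with a mean of 100, and 110 to 269 with 1 library left out. The median KO change at 24 h was 0.15 for the 47 members with a ratio of 2 and 0.10 to 0.13 with 1 library left out, and no setting called a member in KO at 24 h, at 8 h or against the mean of earlier times, where the medians with 1 library left out were 0.05 to 0.08 and 0.07 to 0.12. At 2 h the KO median was -0.0695 with thinned reads and -0.0429 to -0.000891 with 1 library left out, and DESeq2 called 1 member. The genotype median at 2 h was -0.15 with thinned reads, -0.0548 over members with a mean of 100 and -0.14 to -0.0495 with 1 library left out. There DESeq2 called 1 member with all libraries in the fit. Fits with a library left out were by limma. Without the second KO library of 2 h they called member 19, picked out after its values were seen. Its log2 difference was -1.17, with 1 KO library left at 2 h.

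In the held-out fits, having no filter took the number of WT rises called from 10 to 4 and from 28 to 15, and that of interactions from 2 to 0 and from 11 to 4. The count of 2 was also 0 with a pseudocount of 0.5, TMM scaling, DESeq2 and thinned reads, and 0 to 2 with a library left out. For the others these ranges were 7 to 12, 26 to 30 and 8 to 15. No count or median of the members changed sign under these alternatives. The cause of these changes was not tested. The labels number the libraries in each group. The differences between libraries 1 and 2 correlated between groups with r of -0.0752 to 0.168 over all features (median 0.0202 over 28 pairs of groups), with 2 of the 28 above 0.1. Over the members r was -0.364 to 0.263, with 11 above 0.1. With no label that ties equal numbers and r not above 0.1 in every pair, the libraries were not treated as paired. With a replicate block the KO median at 24 h was 0.10 with 0 members called, that between genotypes at 2 h was -0.14 with 0, and the held-out counts were 13 and 28 for WT rises and 2 and 13 for interactions.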
